A study of Gallus gallus with 9 samples.

Results

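Of 10436 genes tested in DF-1 chicken fibroblasts, 910 were set apart in the group labelled 3D_L: 582 lay above and 328 lay below every library of both other groups. The contrast compared 3D_L with the average of the 2D and 3D_E group means, on the log2(FPKM + 1) scale. FPKM divides the fragments of a gene by its transcript's length and the library's size. Of 15294 genes in the table, those that reached 1 FPKM in 3 or more libraries were tested. A gene was called when its limma p, adjusted over all genes tested by the Benjamini-Hochberg method, was under 0.05. It was set apart when, in addition, its 3 3D_L values all lay above, or all below, the 6 others. Since these genes were picked by that contrast and by their values, their differences, adjusted p-values and counts in it are given as a description of them.

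DF-1 is an immortalised line of chicken embryo fibroblasts, and the series followed its adaptation from attached growth to carrier-free suspension. Poly-A selected RNA was sequenced in 9 libraries, 3 each of 2D, 3D_E and 3D_L, all labelled WT. The labels give no treatment, time or age and do not spell out E and L. They name no separate cultures either, so the p-values reflect the spread from library to library alone, and that spread may be technical.

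Summed over genes, FPKM ranged from 641334 to 738281 per library, and the read depth is unknown because no counts were used. Libraries of 3D_E differed most among themselves, with a log2 SD (root mean square over genes) of 0.29, compared with 0.12 for 2D and 0.16 for 3D_L. Since limma pools the spread of the 3 groups, calls that hinge on 3D_E are less certain than those that hinge on 2D. These are bulk libraries, so a change in the share of some cells and a change in RNA per cell cannot be told apart. Changes on the log2(FPKM + 1) scale understate those of low genes.

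Fibroblasts make and hold the collagen scaffold of connective tissue, and they pull on it through actin fibres anchored at adhesions to the substrate. They also act as sentinels: on inflammatory or mechanical signals they secrete chemokines, cytokines of the interleukin-6 family and hyaluronan. In suspension without carriers, cells lose the flat substrate and can attach only to each other or to matrix they deposit.

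The contrast called 1455 genes higher in 3D_L, 13.9% of those tested, and 833 lower, 7.98%. Genes set apart above were 5.58% of all tested and genes set apart below 3.14%; without the requirement of a call the 3 3D_L values lay above all others in 703 genes, 6.74%, and below in 404, 3.87%. For 569 of the genes called higher and 294 of those called lower, the 3D_L mean lay between the means of 2D and 3D_E. Such genes differ from the average of the other groups without lying outside them. Higher calls made up 63.6% of all calls in this contrast, and 49.9% after quantile normalization, so the excess of higher calls depends on the scaling. The excess of genes set apart above does too. Quantile normalization gave 509 set apart above and 581 below, and median-ratio scaling 481 and 430. Leaving out 3D_E replicate 1 gave 884 genes set apart above and 586 below, leaving out 3D_L replicate 1 gave 387 and 199, and leaving out 3D_L replicate 2 gave 387 and 214.

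Of the 582 genes set apart above, 142 were called higher in 3D_E than in 2D, 152 lower and 288 neither, which is 24.4%, 26.1% and 49.5%. Over all tested genes 3D_E was called higher than 2D in 36.1% and lower in 32.1%. Of the 328 genes set apart below, 84 were called higher in 3D_E than in 2D, 59 lower and 185 neither. Against the nearer of the other group means, the median difference was 0.44 for the genes above and -0.35 for those below, and it reached 1 in 77 and 14 genes. Most of the 910 were therefore displaced by less than a doubling of FPKM + 1. Tested singly, 403 of the genes above and 196 of those below were called against 2D and against 3D_E alike. The contrast that picked these genes averages the same differences, so many such calls follow from the choice. Among all 10436 tested genes, 416 were called higher against both groups and 208 lower. Taken separately, 3D_L was called higher than 2D in 20.3% of all tested genes and lower in 16.2%. It was called higher than 3D_E in 27.2% and lower in 26.4%. Of the genes above, 77 passed the filter only through the 3D_L libraries, since fewer than 3 other libraries reached 1 FPKM, and in 52 of these no other library did. Such genes could be found above but hardly below.

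At the edge of the set above, MSRA, which repairs oxidised methionine, was just outside at an adjusted p of 0.0504 (limma). At the edge of the set below, SREK1, a splicing regulator, was inside at 6.77, 7.09 and 6.90 FPKM against 7.61 to 11.73 elsewhere, and ASCL3 was outside at an adjusted p of 0.0504.

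**Figure D1:**
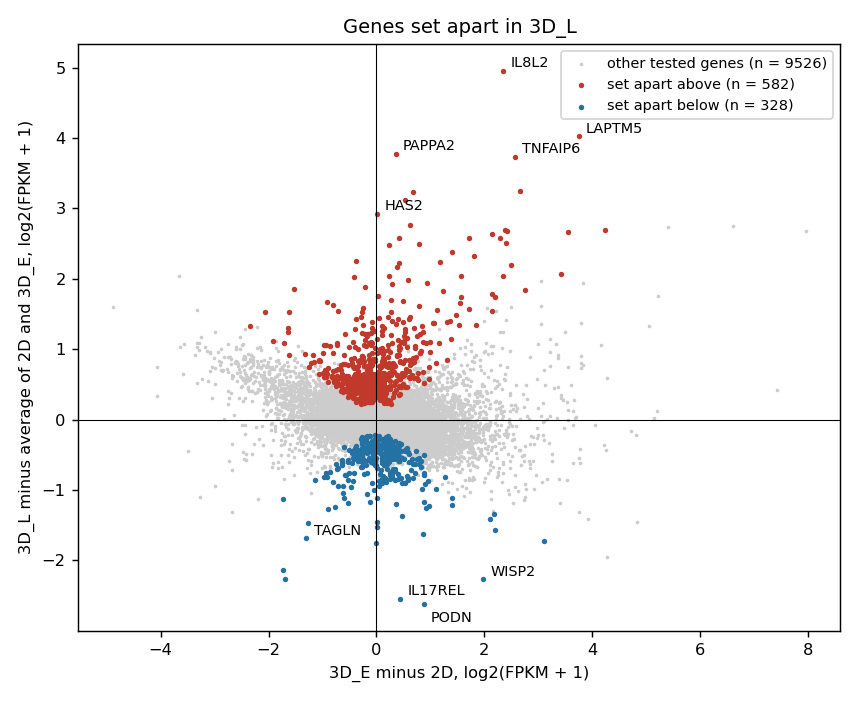
Each point is 1 of 10436 tested genes; the horizontal axis gives the 3D_E minus 2D difference and the vertical axis the 3D_L minus average difference, both in log2(FPKM + 1). The 582 genes set apart above (red) and 328 set apart below (blue) lie on both sides of 0 on the horizontal axis, and IL8L2 stands highest at 4.96.

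Secreted cytokines and chemokines held the gene that stood furthest above both other groups. IL8L2 (NCBI gene 396495) encodes an interleukin-8 type chemokine that attracts granulocytes; it had 131.17, 131.88 and 134.45 FPKM in 3D_L libraries 1, 2 and 3. It had 6.79, 9.36 and 10.42 in 3D_E and 1.17, 0.47 and 1.15 in 2D. No groups overlapped, 3D_E lay between, and the 3D_L libraries were within a few FPKM of each other. The difference from the average was 4.96 ± 0.15 (log2, SE; limma, adjusted p = 4.08e-08). Its neighbour IL8L1, a related gene, had 3.14, 3.14 and 3.55 FPKM in 3D_L and at most 0.34 elsewhere. Reads of related genes can be shared where their sequences match, which was not examined here. How such reads were assigned is not given in the sources used here, so the level of each is uncertain.

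TNFSF15 (NCBI gene 417247), a tumour necrosis factor family ligand, had 11.84, 12.44 and 6.77 FPKM in 3D_L. It had 0.50, 0.49 and 0.59 in 3D_E and 0.00, 0.05 and 0.10 in 2D. The group 3D_L thus held nearly all of its signal, with replicate 3 the lowest of the 3. IL11 (NCBI gene 107051287), a cytokine of the interleukin-6 family made by stromal cells, had 28.38, 29.39 and 25.70 FPKM in 3D_L, 7.67, 6.73 and 8.98 in 3D_E and 1.95, 1.54 and 1.54 in 2D. It stepped up from 2D to 3D_E to 3D_L with no overlap, by 1.71 and then a further 1.72 on the log2 scale (limma, adjusted p = 1.04e-06 for the 3D_E and 2D difference). CSF3 (NCBI gene 396216), the granulocyte growth factor, had 5.20, 5.65 and 5.86 FPKM in 3D_L and between 0.06 and 0.32 elsewhere.

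The chemokine CCL4, which attracts monocytes and lymphocytes, had 2103.22, 1913.52 and 2332.12 FPKM in 3D_L. It was already abundant elsewhere, with 762.83 to 1162.85 FPKM, and 3D_L lay above both groups by about the same amount, 1.03 over 2D and 1.24 over 3D_E. A neighbouring entry, listed as gene-CCL4, was set apart above too. Whether these entries share reads was not examined, so the level of each is uncertain. LIF, an interleukin-6 family cytokine known for keeping stem cells undifferentiated, had 65.49, 63.24 and 68.34 FPKM in 3D_L against 26.16 to 36.59 elsewhere. CX3CL1, a chemokine that also occurs tethered to the membrane, had 16.23, 15.13 and 12.81 FPKM in 3D_L, only just above the highest 3D_E library at 12.75. Of the chemokine and interleukin list, 16 members were tested: 10 were called higher, 0 lower, and the same 10 were set apart above, against 13.9%, 7.98% and 5.58% of all tested genes. Of the 10, CCL20, CSF3, IL8L1 and TNFSF15 were tested only because of their 3D_L values, so the filter itself placed 4 members above. The others of the 10 were CCL20 and CXCL14, both under 2 FPKM in every library. The list's median difference was 1.11, against 0.02 for all tested genes, and 10 further members, IL6 and IL1B among them, did not pass the filter.

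Cytokine receptors were called higher in 16 of 29 tested members and lower in 2, with a median of 0.33, and 8 were set apart above and 1 below. Over all tested genes 13.9% were called higher, 7.98% lower, 5.58% set apart above and 3.14% below. CSF2RA (NCBI gene 418666), the ligand-binding chain of the GM-CSF receptor, had 15.75, 18.35 and 17.22 FPKM in 3D_L, 4.97, 3.51 and 2.60 in 3D_E and 2.52, 2.65 and 2.41 in 2D. It was high in 3D_L alone, and 3D_E and 2D overlapped. IL13RA2 (NCBI gene 422219), a decoy receptor for interleukin-13, had 20.09, 19.13 and 21.77 FPKM in 3D_L, 4.63, 6.05 and 6.17 in 3D_E and 3.16, 3.25 and 3.82 in 2D. TNFRSF11B (NCBI gene 378803), osteoprotegerin, a secreted decoy for the ligand that drives osteoclast formation, had 168.42, 177.84 and 167.32 FPKM in 3D_L and 53.04 to 76.83 elsewhere. ACKR3, a chemokine scavenger, and the receptors IL4R, IL6R, TNFRSF1B and TNFRSF21 were the others above, with differences between 0.44 and 0.94. Of these, IL6R was tested only because of its 3D_L values. IL17REL was the member below and is described with the genes set apart below.

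NF-kB is a transcription factor that drives many of these cytokine genes. In a list of its pathway and feedback genes, which also holds sensors and targets, 4 of 36 tested were set apart above and 2 below. Those shares, 11.1% and 5.56%, compare with 5.58% and 3.14% of all tested genes. Of the 36, 11 were called higher and 2 lower, against 13.9% and 7.98% of all tested genes, with a median of 0.15. The 3D_L median of this list lay 0.31 above 2D and 0.05 below 3D_E. In 23 of the 36 the 3D_L mean lay between the other groups. TNFAIP6 (NCBI gene 424315), a secreted hyaluronan-binding protein induced by inflammatory signals, had 317.48, 324.06 and 349.36 FPKM in 3D_L, 68.96, 55.94 and 55.14 in 3D_E and 9.16, 10.03 and 8.63 in 2D. It rose in 2 steps without overlap, by 2.57 and 2.45 on the log2 scale. NFKBIE, an inhibitor of NF-kB, lay between 13.94 and 16.14 FPKM in 3D_L and up to 13.07 elsewhere. The IRAK2 call, at an adjusted p of 0.046 (limma), was weak: it was set apart in 7 of 19 alternative settings. In the interferon response list 2 of 33 tested members were set apart above, GBP1 and USP18, and 0 below, a share of 6.06% beside 5.58% of all tested genes, and its median was -0.05.

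HAS2 (NCBI gene 395594), the synthase that makes hyaluronan at the plasma membrane, had 41.64, 44.37 and 40.81 FPKM in 3D_L. It had 4.37, 4.69 and 5.24 in 3D_E and 4.42, 4.98 and 4.65 in 2D. The other groups overlapped and lay far below 3D_L, with a difference of 2.92 ± 0.079 (log2, SE; limma, adjusted p = 2.62e-08) and a 3D_E against 2D difference of 0.02 (adjusted p = 0.86). CD44 (NCBI gene 395666), the main hyaluronan receptor, had 38.40, 38.44 and 38.11 FPKM in 3D_L against 25.43 to 33.08 elsewhere, a difference of 0.44. LYVE1, another hyaluronan receptor, lay on the other side, with 3.13, 2.30 and 3.42 FPKM in 3D_L against 4.49 to 15.14 elsewhere, a difference of -1.16. GFPT2 (NCBI gene 426962), which feeds glucose into the hexosamine pathway that supplies a building block of hyaluronan, had 163.30, 178.46 and 158.60 FPKM in 3D_L, 62.97, 56.87 and 55.55 in 3D_E and 9.60, 10.79 and 10.61 in 2D.

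PAPPA2 (NCBI gene 429071), a secreted protease that cleaves IGF binding proteins, had 16.62, 16.76 and 12.33 FPKM in 3D_L and no more than 0.36 in any other library. It is among the 52 genes that reached 1 FPKM in 3D_L libraries alone. IGFBP2 (NCBI gene 396315), an IGF binding protein, had 10.28, 10.70 and 15.12 FPKM in 3D_L and 4.10 to 6.79 elsewhere. EMILIN2 (NCBI gene 421058), an elastic fibre associated glycoprotein, had 29.07, 31.81 and 24.31 FPKM in 3D_L, 8.01, 6.06 and 4.90 in 3D_E and 4.28, 4.32 and 4.60 in 2D. The gene listed as VNN1 (NCBI gene 421702, VNN2 in RefSeq), of the vanin family of pantetheinases, which recycle vitamin B5, had 20.23, 20.65 and 17.44 FPKM in 3D_L and at most 2.00 elsewhere. All 4 genes were lower in both other groups, with no overlap.

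Further genes set apart above had intermediate levels in 3D_E. LAPTM5 (NCBI gene 419552), a lysosomal membrane protein best known from blood cells, had 98.56, 96.86 and 103.28 FPKM in 3D_L, 24.98, 22.86 and 17.71 in 3D_E and 0.81, 0.79 and 0.47 in 2D. VDAC1 (NCBI gene 416320), the main pore of the outer mitochondrial membrane, had 47.66, 47.90 and 51.05 in 3D_L, 20.43, 15.96 and 12.09 in 3D_E and 2.72, 3.06 and 2.69 in 2D. In both the groups were ordered 2D, 3D_E, 3D_L without overlap. DIO3 (NCBI gene 395939), the deiodinase that inactivates thyroid hormone, had 68.40, 69.18 and 79.23 FPKM in 3D_L, 20.60, 22.13 and 22.89 in 3D_E and 7.94, 7.83 and 7.17 in 2D. CYP3A5 (NCBI gene 414832), a cytochrome P450, had 25.36, 22.83 and 23.08 in 3D_L, 7.10, 4.94 and 4.90 in 3D_E and at most 0.09 in 2D. Because 2D and 3D_E lay so far apart, LAPTM5, CYP3A5, VDAC1 and GFPT2 were no longer called when the 6 other libraries were treated as 1 group (limma, highest adjusted p = 0.134), a setting that counts the distance between 2D and 3D_E as spread.

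**Figure D2:**
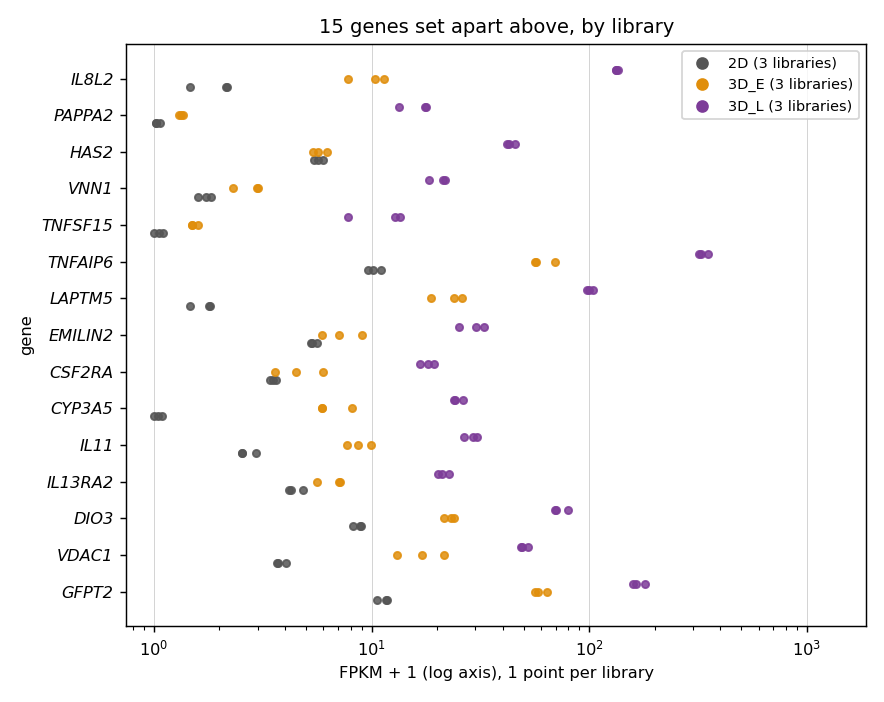
FPKM + 1 on a log axis in each of the 9 libraries for 15 genes set apart above. Points are libraries (2D grey, 3D_E orange, 3D_L purple). Of genes without a LOC symbol and with a 3D_L mean of 10 FPKM or more, they differ most from the nearer group. HAS2 has overlapping 2D and 3D_E points near 5 FPKM and 3D_L points above 40, while IL11, DIO3, GFPT2 and TNFAIP6 step up from 2D through 3D_E to 3D_L.

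Below both other groups, the gene with the largest difference from the average was PODN (NCBI gene 424647), podocan, a small leucine-rich matrix proteoglycan. It had 5.66, 5.93 and 5.76 FPKM in 3D_L, 59.18, 58.40 and 49.32 in 3D_E and 31.40, 28.07 and 29.95 in 2D. The difference was -2.62 ± 0.082 (log2, SE; limma, adjusted p = 4.29e-08), although 3D_E lay above 2D by 0.88. IL17REL (NCBI gene 769256), a receptor-like gene related to interleukin-17 receptors, had 24.19, 25.74 and 27.54 FPKM in 3D_L. It had 199.50, 185.59 and 159.36 in 3D_E and 128.86, 140.58 and 130.22 in 2D. In both genes 3D_L was low while 3D_E was higher than 2D. WISP2 (NCBI gene 419192), a secreted CCN family protein, did the same with 19.22, 19.44 and 20.28 FPKM in 3D_L, 170.01, 193.93 and 227.88 in 3D_E and 54.64, 41.66 and 51.71 in 2D.

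PODN lies next to other genes of the same behaviour. In the gene order of RefSeq assembly GRCg7b, which is not the build of the authors' table, SCP2, PODN, CPT2 and SLC1A7 are 4 consecutive tested genes and all 4 were set apart below. SCP2 (NCBI gene 396550), a sterol carrier and peroxisomal thiolase gene, had 70.79, 79.42 and 84.43 FPKM in 3D_L, 311.59, 241.50 and 155.00 in 3D_E and 221.27, 236.06 and 215.12 in 2D. CPT2 (NCBI gene 424649), which re-forms acyl-CoA inside mitochondria for fatty acid oxidation, had 15.49, 16.38 and 17.43 in 3D_L, 33.32, 31.91 and 33.60 in 3D_E and 37.49, 37.13 and 37.51 in 2D. Neither overlapped with another group, and the differences from the average were -1.52 and -1.05. SLC1A7, a glutamate transporter gene, was low everywhere, at 0.17 to 0.25 FPKM in 3D_L and 0.48 to 1.75 elsewhere, and in RefSeq it lies within the span of CPT2. Whether the counting used strand is not given, so reads of that pair cannot be told apart. Nearby, GPX7, at 15.07, 16.18 and 17.61 FPKM in 3D_L against 22.47 to 37.68 elsewhere, and COA7, at 19.32 to 22.31 against 26.32 to 31.76, were set apart below too. ZYG11B, ECHDC2 and MAGOH, which lie among and beside them, were not called, with adjusted p of 0.774, 0.139 and 0.358 (limma).

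Fibrillar collagen genes were set apart below. COL1A1 (NCBI gene 395532), the larger part of type I collagen, had 252.12, 255.00 and 247.70 FPKM in 3D_L, 282.53, 471.72 and 662.97 in 3D_E and 954.60, 654.37 and 909.43 in 2D. COL1A2 (NCBI gene 396243), its partner chain, had 122.97, 125.70 and 113.81 in 3D_L, 206.34, 213.90 and 221.03 in 3D_E and 339.06, 283.48 and 355.52 in 2D. The 3D_L libraries lay close together while the COL1A1 values of 3D_E spread widely, the lowest of them near 3D_L. COL5A1 (NCBI gene 395568), which nucleates collagen fibrils, had 21.14, 21.67 and 18.65 FPKM in 3D_L, 28.52, 41.15 and 53.90 in 3D_E and 65.81, 45.62 and 63.64 in 2D. COL3A1 had 167.27, 172.65 and 154.40 in 3D_L against 212.41 to 264.64 elsewhere. COL5A2, COL8A1, COL18A1, the basement membrane proteoglycan HSPG2 and the collagen-binding SPARC were set apart below too. In all, 10 of 40 tested members of the extracellular matrix list were set apart below and 4 above. That is 25% and 10%, against 3.14% and 5.58% of all tested genes.

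The 4 matrix genes on the other side were HAS2, DCN, EFEMP1 and MFAP5. DCN (NCBI gene 417892), decorin, a proteoglycan that binds collagen fibrils, had 510.66, 517.98 and 495.29 FPKM in 3D_L, 375.40, 226.71 and 143.65 in 3D_E and 153.71, 169.28 and 168.51 in 2D. EFEMP1, a fibulin of elastic tissue, had 75.22, 76.82 and 81.46 in 3D_L, 62.39, 49.53 and 44.78 in 3D_E and under 2 in 2D. Matrix genes therefore moved both ways: 9 were called higher and 17 lower, against 13.9% and 7.98% of all tested genes. The median was -0.32, and over the list the 3D_L median was 0.07 above 2D and 0.56 below 3D_E. ZNF469 (NCBI gene 101748749), a zinc finger gene tied to collagen synthesis through human corneal disease, had 5.30, 5.53 and 3.44 FPKM in 3D_L against 10.28 to 13.54 elsewhere.

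The machinery that folds and crosslinks collagen was set apart below in 6 of 25 tested members and above in 1. That is 24% and 4%, beside 3.14% and 5.58% of all tested genes. Of the 25, 7 were called lower and 2 higher, against 7.98% and 13.9% of all tested genes. SERPINH1 (NCBI gene 396228), the collagen chaperone HSP47, had 226.84, 220.11 and 205.81 FPKM in 3D_L, 421.48, 326.00 and 236.16 in 3D_E and 404.16 to 444.97 in 2D, a difference of -0.76 (limma, adjusted p = 0.00635). SEC24D (NCBI gene 422683), a coat protein that helps export procollagen, had 14.88, 14.34 and 13.54 against 20.93 to 24.35 elsewhere. The prolyl and lysyl hydroxylases P3H1, P4HA2 and PLOD2 and the chaperone FKBP7 lay below with them. P4HA3, another prolyl hydroxylase subunit, was the member above, at 104.44 to 115.04 FPKM against 68.54 to 95.41. SERPINH1 was no longer set apart after median-ratio scaling or with the other libraries as 1 group.

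Genes of actin fibres and smooth muscle type contraction were set apart below in 8 of 41 tested members and above in 0. The share below was 19.5%, beside 3.14% of all tested genes. Of the 41, 15 were called lower and 3 higher, against 7.98% and 13.9% of all tested genes, with a median of -0.26. TAGLN (NCBI gene 396490), transgelin, which binds actin fibres, had 37.76, 36.97 and 41.58 FPKM in 3D_L, 68.62, 79.41 and 95.80 in 3D_E and 200.55, 188.28 and 210.46 in 2D. PDLIM1 (NCBI gene 428948), an adaptor on stress fibres, had 16.92, 15.32 and 16.54 in 3D_L, 28.93, 28.87 and 31.30 in 3D_E and 73.65, 71.61 and 72.91 in 2D. Both stepped down from 2D through 3D_E to 3D_L. LMOD1 (NCBI gene 771476), which nucleates actin filaments in smooth muscle, had 0.67, 1.08 and 0.71 FPKM in 3D_L, 2.87 to 3.73 in 3D_E and 12.89 to 14.14 in 2D. TPM1, tropomyosin, had 569.43, 587.79 and 633.13 in 3D_L and 680.07 to 1393.14 elsewhere. MYL9, a regulatory light chain of myosin, took another course, with 193.34 to 221.98 in 3D_L, 283.55 to 327.97 in 2D and 344.74 to 517.15 in 3D_E. The 3D_L median of this list lay 0.69 below 2D and 0.02 above 3D_E, so the list's median lay near 3D_E.

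A list of YAP and TEAD, transcription regulators that report on spreading and tension, and of their targets and regulators had 25 tested members. Of these, 7 were called lower and 0 higher, against 7.98% and 13.9% of all tested genes. Set apart below were CTGF, GADD45B and TEAD1, 12% beside 3.14% of all. GADD45B and TEAD1 were not called against 2D (limma, adjusted p = 0.0676 and 0.126), and TEAD1 was set apart in 13 of 19 alternatives. CTGF (NCBI gene 374135), a secreted CCN family protein, had 337.13, 363.32 and 394.56 FPKM in 3D_L, 658.71 to 695.86 in 3D_E and 480.19 to 593.12 in 2D, a difference of -0.73 (limma, adjusted p = 0.000426). Of 43 tested integrin and focal adhesion genes 3 were set apart above, CD44, PARVB and BCAR1, and 2 below, PXN and FHL1, which is 6.98% and 4.65%, near the 5.58% and 3.14% of all tested genes.

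Other genes among the 15 that stood furthest below have diverse roles. The gene listed as CG-16 (NCBI gene 404269, LGALS1B in RefSeq), a galectin that may share reads with LGALS1, had 4.55, 4.59 and 8.48 FPKM in 3D_L against 15.04 to 29.83 elsewhere. ANAPC13 (NCBI gene 769605), a small subunit of the ubiquitin ligase that ends mitosis, had 13.05, 12.89 and 19.97 against 25.84 to 46.40. The gene listed as GK (NCBI gene 418589, GK2 in RefSeq), a glycerol kinase, had 5.15, 5.29 and 5.39 against 8.18 to 19.06. PIM1 (NCBI gene 100858838), a growth-promoting kinase, had 26.03, 25.45 and 29.94 against 40.15 to 68.88. None of the 4 overlapped.

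**Figure D3:**
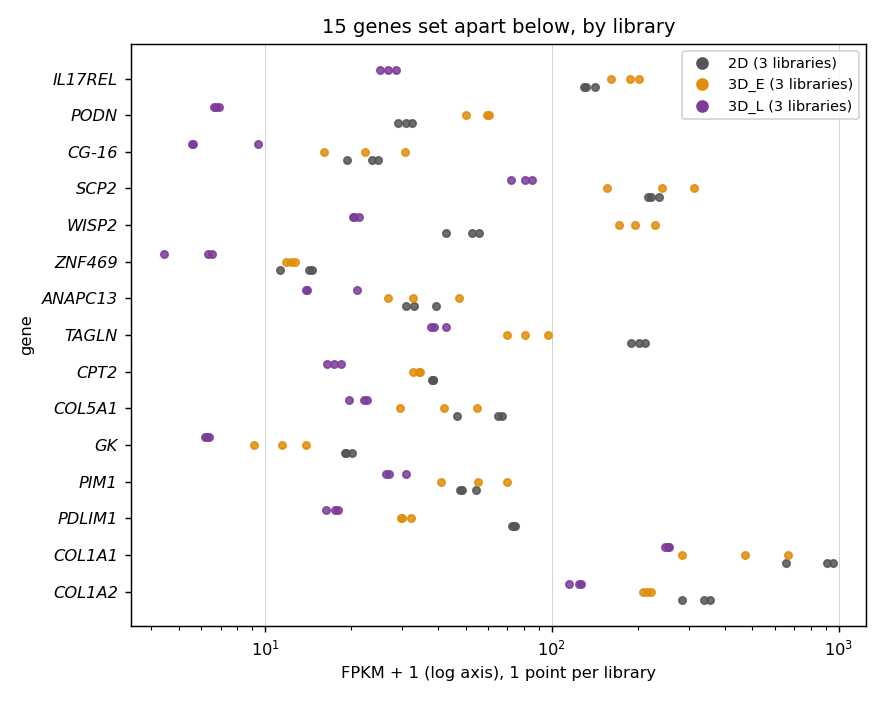
FPKM + 1 on a log axis in each of the 9 libraries for 15 genes set apart below. Points are libraries (2D grey, 3D_E orange, 3D_L purple). Of genes without a LOC symbol and with means of 10 FPKM or more in 2D and 3D_E, they differ most from the nearer group. PODN, IL17REL and WISP2 are highest in 3D_E and lowest in 3D_L, while TAGLN, PDLIM1 and COL1A2 step down from 2D through 3D_E to 3D_L.

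Genes of adhesion between cells were set apart above. Of 24 tested genes of cell-cell adhesion, 9 were set apart above, 37.5% beside 5.58% of all tested genes, and 0 below. Of the 24, 11 were called higher and 2 lower, against 13.9% and 7.98% of all tested genes, with a median of 0.41. CDH2 (NCBI gene 414745), N-cadherin, which joins mesenchymal cells, had 354.25, 365.79 and 316.46 FPKM in 3D_L, 172.01, 123.29 and 80.02 in 3D_E and 222.11, 219.85 and 247.17 in 2D. It was lowest in 3D_E and highest in 3D_L, by 0.59 over 2D and 1.52 over 3D_E, of which the difference from 2D was not called (limma, adjusted p = 0.0651). CDH5 (NCBI gene 374068), the cadherin of endothelium, had the same order at a far lower level, with 9.65, 10.17 and 9.66 in 3D_L, 1.26 to 1.96 in 3D_E and 6.72 to 6.92 in 2D. PCDH19 and NECTIN3, a protocadherin and a nectin, had 3D_L values of 8.06 to 10.05 and 5.96 to 6.66 FPKM, each above all others. CDH6, CLDN5, CLDN11 and GJC1 were also among the 9. CDH6 and CLDN5 stayed under 1.5 FPKM and were tested only because of their 3D_L values, so the filter itself placed 2 members above.

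Growth factors were set apart above in 6 of 26 tested members and below in 2, 23.1% and 7.69% beside 5.58% and 3.14% of all. ANGPTL4 (NCBI gene 769087), a secreted inhibitor of lipoprotein lipase, had 106.90, 104.38 and 105.02 FPKM in 3D_L, 27.90 to 34.10 in 3D_E and 31.88 to 42.96 in 2D, a difference of 1.58 (limma, adjusted p = 6.25e-06). PDGFD (NCBI gene 418978), a platelet-derived growth factor, had 268.97, 267.88 and 238.95 in 3D_L, 205.72, 138.91 and 90.43 in 3D_E and 73.50 to 78.39 in 2D. Endothelin and its receptor both lay above: EDN1 had 6.45, 6.52 and 7.80 FPKM in 3D_L against 2.29 to 4.22 elsewhere. EDNRA (NCBI gene 373908) had 37.40, 37.72 and 40.80 in 3D_L, 12.87 to 18.93 in 3D_E and 1.92 to 2.21 in 2D. The neurotrophin BDNF was on the other side, with 10.80 to 15.59 in 3D_L against 17.09 to 25.66.

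A list of immediate early genes and of feedback inhibitors and effectors of MAP kinase signalling, which growth factor receptors switch on, had 35 tested members. Of these, 8 were set apart above and 1 below. That is 22.9% and 2.86%, beside 5.58% and 3.14% of all tested genes. Of the 35, 14 were called higher and 2 lower, against 13.9% and 7.98% of all tested genes. The 3D_L median of this list lay 0.54 above 2D and 0.13 below 3D_E. In 18 of the 35 the 3D_L mean lay between the other groups. SPRY4 (NCBI gene 427643), a sprouty inhibitor, had 15.39, 15.47 and 9.77 FPKM in 3D_L, 4.48, 3.08 and 1.5 in 3D_E and 4.74 to 5.82 in 2D. ETV4 (NCBI gene 395747), an ETS factor induced by the pathway, had 35.70, 35.55 and 32.86 in 3D_L and 16.89 to 25.56 elsewhere. The phosphatases DUSP4 and DUSP6 lay above by a narrow margin over 2D: DUSP6 had 26.25, 26.46 and 26.39 FPKM in 3D_L and up to 25.70 in 2D, where that difference was not called (limma, adjusted p = 0.437). SPRY1, ETV1, SPRED1 and ZFP36L1 made up the 8, and MAFF was the member below.

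In TGF-beta and BMP signalling 6 of 34 tested members were set apart above and 1 below. That is 17.6% and 2.94%, beside 5.58% and 3.14% of all tested genes. INHBB (NCBI gene 396126), an activin subunit, had 8.18, 8.53 and 7.86 FPKM in 3D_L, 2.47 to 3.51 in 3D_E and 0.67 to 0.71 in 2D. The other activin subunit, INHBA, was set apart on the opposite side, with 112.65, 118.21 and 129.83 FPKM in 3D_L, 132.93 to 137.19 in 2D and 246.28 to 426.14 in 3D_E; its difference from 2D was not called (limma, adjusted p = 0.455). ID2, SMAD1, SMAD9, TGFB3 and TGFBR2 were the others above. Wnt, Notch and hedgehog genes were split evenly, 4 above and 4 below of 34 tested. That is 11.8% on each side, beside 5.58% and 3.14% of all tested genes. ROR1 had 10.03 to 11.07 FPKM in 3D_L against 4.35 to 6.50, and WNT9A 1.69 to 2.85 against 3.94 to 10.29.

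Among matrix proteases and their inhibitors 4 of 32 tested were set apart above and 2 below. That is 12.5% and 6.25%, beside 5.58% and 3.14% of all tested genes. ADAM12 (NCBI gene 425843), a membrane-bound metalloprotease, had 38.44, 38.28 and 36.13 FPKM in 3D_L and 13.28 to 17.26 elsewhere, where 2D and 3D_E overlapped. MMP9, the gelatinase of inflamed tissue, was low throughout, at 3.24 to 3.38 in 3D_L, 1.26 to 1.54 in 3D_E and 0.25 to 0.40 in 2D. HTRA1 and MMP28 were the others above, and ADAMTS12 and TLL1 were the members below. Outside this list, in that of complement and coagulation, SERPINE2, an inhibitor of thrombin and plasminogen activators, had 31.59 to 35.47 FPKM in 3D_L against 10.52 to 17.53.

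**Figure D4:**
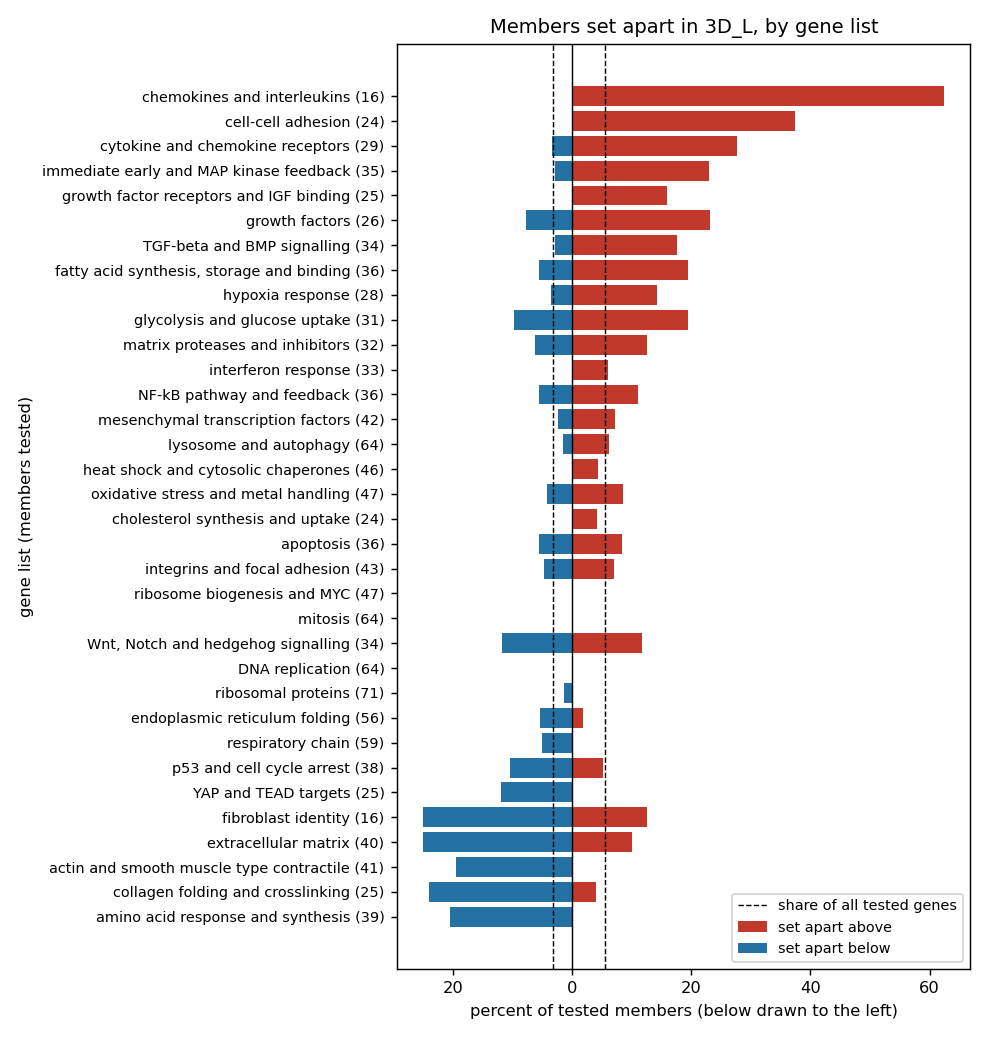
Share of the tested members of each gene list that were set apart above (red, to the right) or below (blue, to the left) in 3D_L, for the 34 lists with at least 15 tested members; dashed lines mark the shares of all tested genes, 5.58% and 3.14%. Chemokines and interleukins reach 62.5% above, with 4 of their 16 tested members passing the filter only through 3D_L, and fibroblast identity and extracellular matrix reach 25% below.

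Of 31 tested genes of glycolysis and glucose uptake, 6 were set apart above and 3 below. That is 19.4% and 9.68%, beside 5.58% and 3.14% of all tested genes. LDHA (NCBI gene 396221), which makes lactate, had 1965.00, 1903.24 and 2087.75 FPKM in 3D_L, 1734.33, 1371.43 and 1081.72 in 3D_E and 1139.39 to 1322.46 in 2D. PGD and TALDO1, of the pentose phosphate pathway, had 227.71 to 244.94 and 269.04 to 324.38 in 3D_L, against at most 191.04 and 244.53. ENO1, PGK1 and PKM were also above 2D, but those 3 differences from 2D were not called (limma, adjusted p = 0.0811, 0.625 and 0.325). The uptake step lay on the other side: the transporter SLC2A1 had 43.28 to 46.67 FPKM in 3D_L against 49.16 to 67.95, and the hexokinase HK2 16.13 to 20.91 against 22.02 to 36.33. The HK2 difference from 2D was not called (limma, adjusted p = 0.0681) and its call in the contrast was weak, with set-apart status in 9 of 19 alternatives.

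Of fatty acid genes 7 of 36 tested were set apart above and 2 below, 19.4% and 5.56% beside 5.58% and 3.14% of all. The desaturases FADS2 and FADS1, neighbouring genes that make long polyunsaturated fatty acids, had 28.31 to 32.42 and 16.98 to 17.60 FPKM in 3D_L, against at most 20.61 and 13.75. LIPG (NCBI gene 426846), endothelial lipase, had 295.58, 280.61 and 281.25 in 3D_L, 90.92 to 108.95 in 3D_E and 175.25 to 203.36 in 2D. CPT2, of fatty acid oxidation, and GPAM were the genes below. ERO1A and ADM, 2 of the 4 hypoxia response genes above, had 75.62 to 85.13 and 207.54 to 243.99 FPKM in 3D_L against at most 55.11 and 186.21. That list's median was 0.06 over 28 tested members, of which 14.3% were set apart above beside 5.58% of all tested genes. Of the 4, EGLN3 passed the filter only through 3D_L.

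HMOX1 (NCBI gene 396287), heme oxygenase, which breaks down heme under oxidative stress, had 283.52, 264.23 and 273.19 FPKM in 3D_L, 141.26, 94.65 and 70.70 in 3D_E and 110.62 to 120.17 in 2D. GSTT1, a glutathione transferase, had 10.95 to 11.81 in 3D_L against 2.35 to 4.61. They were 2 of 4 genes of oxidative stress and metal handling above, with 2 below of 47 tested. Those shares, 8.51% and 4.26%, lay near the 5.58% and 3.14% of all tested genes. CTSC (NCBI gene 419014), a lysosomal protease that activates granule proteases of immune cells, had 332.26, 350.08 and 372.82 in 3D_L against 123.82 to 206.75.

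Genes of amino acid synthesis and of its stress response were set apart below in 8 of 39 tested members and above in 0. The share below was 20.5%, beside 3.14% of all tested genes. Of the 39, 13 were called lower and 3 higher, against 7.98% and 13.9% of all tested genes, although the list's median was -0.09. ATF4, the transcription factor of this response, had 492.48, 503.97 and 598.71 FPKM in 3D_L against 666.39 to 957.57. CTH (NCBI gene 424716), which makes cysteine, had 14.60, 15.85 and 14.54 against 22.93 to 37.63. DDIT3, the stress factor CHOP, had 9.36 to 12.77 in 3D_L, 14.40 to 21.33 in 2D and 19.71 to 47.45 in 3D_E, and its difference from 2D was not called (limma, adjusted p = 0.138). ALDH18A1, CARS, GPT2, MTHFD2 and LOC100858796 completed the 8. The 3D_L median of the list lay 0.56 below 2D and 0.18 above 3D_E, so this median too lay near 3D_E.

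Of 38 tested genes of p53 and cell cycle arrest 4 were set apart below and 2 above. That is 10.5% and 5.26%, beside 3.14% and 5.58% of all tested genes. MDM2 and MDM4, the inhibitors of p53, had 10.31 to 11.40 and 14.65 to 16.82 FPKM in 3D_L, against 14.30 to 21.69 and 19.98 to 36.39. Of apoptosis genes, the inflammatory caspase CASP1 was above, with 34.60 to 36.99 against 25.47 to 31.25. In the respiratory chain 3 of 59 tested were set apart below and 0 above, NDUFA1, NDUFA2 and UQCRQ, a share of 5.08% beside 3.14% of all tested genes, and of 71 ribosomal proteins 1, RPL26L1. NDUFA2 and RPL26L1 were each set apart in 9 of 19 alternatives.

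The mitosis and DNA replication lists held many called genes but none set apart. For comparison, 13.9% of all tested genes were called higher, 7.98% lower, 5.58% set apart above and 3.14% below. Of 64 tested mitosis genes 58 were called higher than the average of the other groups and 0 lower, with a median of 0.67, yet 0 were set apart. The 3D_L mean lay between 2D and 3D_E in 61 of the 64. DNA replication genes behaved alike, with 37 of 64 called higher, 0 lower, 0 set apart and 59 between. Measured from the 2D mean, the median mitosis gene was at -0.40, -0.40 and -0.42 in the 3D_L libraries and between -2.32 and -2.14 in 3D_E. Cholesterol synthesis and uptake followed, with 15 of 24 called higher, 0 lower and 1 set apart above, the late-pathway enzyme SC5D, at 38.10 to 40.86 FPKM against up to 36.12 in 2D, a difference from 2D that was not called (limma, adjusted p = 0.0821). The 3D_L mean lay between the other groups in 19 of those 24.

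**Figure D5:**
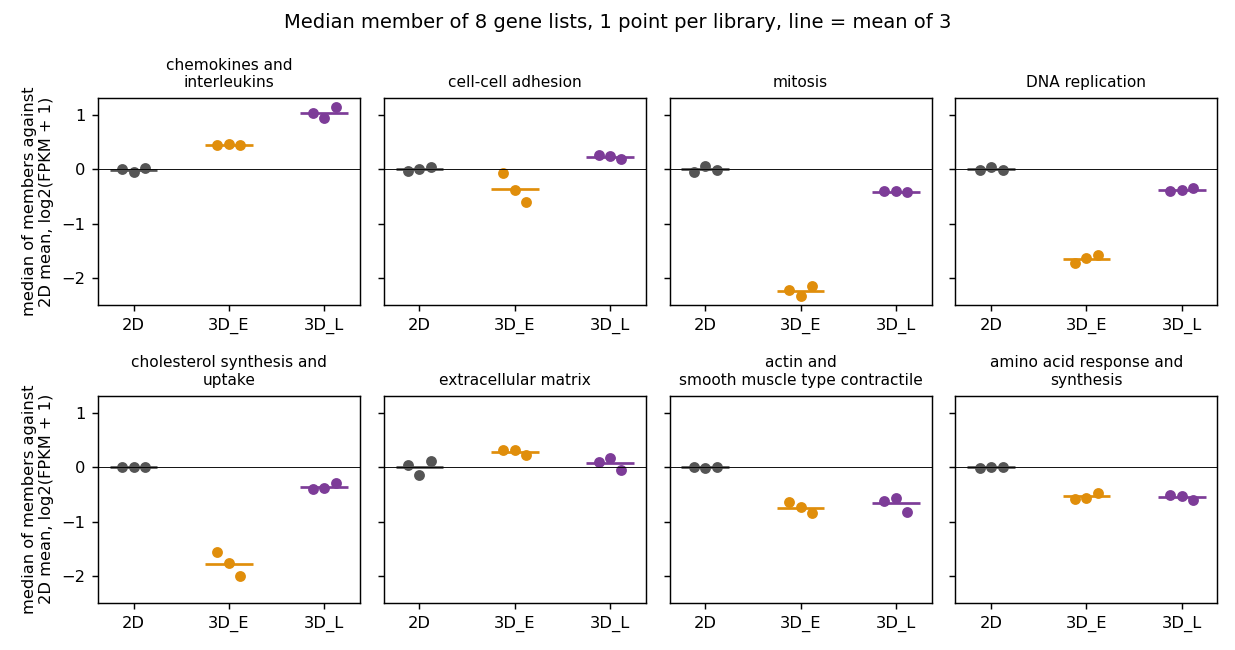
Median over the members of 8 gene lists of log2(FPKM + 1) minus the 2D mean, with 1 point per library and a line at the mean of each group's 3 libraries. Mitosis, DNA replication and cholesterol genes in 3D_L sit between 2D and 3D_E, with mitosis at -0.40 to -0.42, while chemokines and interleukins reach 0.94 to 1.14 in 3D_L against 0.45 to 0.46 in 3D_E.

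Markers of other cell types were examined beside these genes. Their shares set apart compare with 5.58% above and 3.14% below over all tested genes. The 20 blood and immune markers in the table, 8 of them tested, summed to 162 to 173 FPKM in 3D_L, 70.4 to 76.4 in 3D_E and 46.9 to 50 in 2D, and 3 were set apart above, LAPTM5, CD44 and CHIR-IG1-5. Those 3 were 37.5% of the 8 tested. Of the 8, 3 were called higher and 1 lower, against 13.9% and 7.98% of all tested genes. MARCO had 0.95 to 1.45 FPKM in 3D_L, 1.25 to 1.84 in 3D_E and 1.70 to 1.88 in 2D. CD74 had 1.09 to 1.78, 1.40 to 1.81 and 2.79 to 3.04 in that order, so both were lower in 3D_L than in 2D. LAPTM5 made up most of the higher sum in 3D_L, and the list's median difference was 0.03. Of the 20, 2 were at 0 in every 3D_L library, CD79B and HBBA. PTPRC, the pan-leukocyte antigen, did not exceed 0.69 FPKM in any library, SPI1 did not exceed 0.16 and CYBB 0.02. CD3E, of the T cell receptor complex, was at 5.19 to 9.10 throughout, CSF1R at 0.59 to 0.75 in 3D_L, 1.13 to 2.75 in 3D_E and 0.18 to 0.32 in 2D, and CD83 at 0.73 to 0.94, 1.26 to 2.01 and at most 0.03. The 16 endothelial and mural markers summed to 258 to 344 in 3D_L and 282 to 321 in 2D, groups that overlapped, and 179 to 239 in 3D_E. CDH5 and CLDN5 were set apart above and LYVE1 below, 28.6% and 14.3% of 7 tested members, with a median of 0.25. CLDN5 passed the filter only through 3D_L. ERG had 104.38 to 132.67 FPKM in 3D_L and 115.93 to 127.84 in 2D, MCAM 78.35 to 96.71 and 75.71 to 97.59, and PECAM1 0.71 to 0.78 and 0.12 to 0.27. KDR, TEK and VWF stayed at or under 0.10, and TEK alone was at 0 in every 3D_L library. Markers of epithelial and neural cells summed to 37.5 to 40.1 in 3D_L and up to 34.3 elsewhere, with 7 of 27 at 0 in every 3D_L library. NEFL was set apart above, 16.7% of 6 tested. Of the 6, 2 were called higher and 2 lower, against 13.9% and 7.98% of all tested genes. MAP2 had 17.15 to 17.30 FPKM in 3D_L, 16.08 to 18.92 in 3D_E and 4.74 to 5.45 in 2D. KRT7 had 0.81 to 1.46, 0.82 to 2.68 and 3.66 to 4.26 in that order, and TFAP2B 7.15 to 9.02, 6.83 to 9.41 and 17 to 19.84. Muscle, fat, cartilage and bone markers summed to 71.7 to 72.8 in 3D_L, between 2D and 3D_E, with MYH1E set apart above, 12.5% of 8 tested. Of the 18 fibroblast genes 16 were tested, and the 18 summed to 9400 to 10300 FPKM in 3D_L, 7710 to 8760 in 2D and 12500 to 13500 in 3D_E. S100A6 and VIM together made up most of these sums. VIM had 1833.3 to 2021 FPKM in 3D_L, 306.94 to 330.17 in 2D and 2185.2 to 3019.6 in 3D_E, while S100A6 overlapped between the groups. COL1A1, COL1A2, COL3A1 and SPARC were set apart below and DCN and THY1 above, 25% and 12.5% of the 16 tested. PDGFRA did not pass the filter in these cells. What part a change in cell composition has in the differences was not tested.

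Beyond the run at PODN, genes set apart on the same side lay side by side in other places too. Of 10023 pairs of tested genes that follow each other in the GRCg7b order, genes that were not tested being skipped, 61 were both above and 24 both below, and there were 10 runs of 3 or more. Taken singly, 5.58% of all tested genes were set apart above and 3.14% below. Whether neighbours were set apart together more often than these shares would give was not tested. CCL20, PID1 and DNER formed a run above. A run of CHIR-AB1, LOC107049967 and TARM1L holds immune receptors of a gene family whose members can share reads.

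Along that order, the median difference of 51 neighbouring genes was highest from ALKBH5 to UBFD1, at 0.33, with 45 of the 51 genes above 0. In that stretch 24 genes were called higher, 0 lower, and 12 were set apart above. Measured from the 2D mean, its median was 0.29, 0.33 and 0.29 in the 3D_L libraries and 0.03, 0.00 and -0.02 in 3D_E, so the displacement was small, shared by most genes and present in each 3D_L library. The highest of the other 51-gene stretches, among those sharing no gene with it, ran from ACTR6 to EMP1 at 0.24, where the 3D_L libraries were at 0.02, -0.01 and 0.05 from 2D and 3D_E was lower. The lowest of 8297 stretches stood at -0.16. With 99 genes the highest stretch ran from NT5M to RAC1, at 0.27, with 84 genes above 0, 39 called higher, 0 lower and 18 set apart above. The stretches were chosen for their medians after these were computed and are given without a test, and the gene order of the authors' build was not used here.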

How the data were processed

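Per the file headers, the values the authors deposited are FPKM, rounded to 2 decimals. The submitters' processing notes list HISAT2 2.0.5 and, with no role stated, R 3.4.2, DESeq2 and genome build GRCg6a. Which annotation and which program gave the FPKM is not given in the sources used here. Per the labels' protocols, RNA came from a trizol extraction and oligo-dT selection. The table has 82 columns without a name, which were not used, and 1 line without a gene name was dropped.

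Groups were taken from the labels. Values of all 9 libraries as log2(FPKM + 1) were fitted together with a group term (limma 3.58.1, R 4.3.3; eBayes with an intensity trend; 6 residual degrees of freedom) and tested 2-sided, with p-values adjusted by Benjamini-Hochberg over 10436 genes. Errors of differences are SEs from that fit. The steps were tested on simulated data, and figures used Python 3.11.15 with matplotlib 3.10.9. The members and the 39 gene lists were chosen with earlier results of these data known, so their counts are descriptions.

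Named genes were the 15 above and 15 below with the largest difference to the nearer group and a symbol other than a LOC number. Those above had a mean of 10 FPKM or more in the group set apart, and those below in each of the other groups. Up to 4 set-apart members of each list reaching 5 FPKM were named too. Other list members, the genes at the threshold and the neighbours of PODN were named after their values were seen. RefSeq (GRCg7b) holds 14265 of the gene numbers, with another symbol for 903, and was used only for names and gene order; no coordinates are printed. GAPDH and TBP were not called, at 0.16 and -0.10, but GAPDH was after quantile normalization (adjusted p = 0.0442). Alternatives were the pseudocount (0.1 or 5), the filter, the scaling, the spread model, the 6 other libraries as 1 group, a replicate block, a call against both groups, and each library left out. Results on a few genes are not reported here.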

Additional observations from a re-analysis of the deposited data

How the results depend on the processing

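No difference of the 126 named genes changed sign in 2383 recomputed values. All but GAPDH and TBP were picked because their 3D_L values lay on 1 side of all others. For them only a change of scaling could have reversed the sign, so the absence of reversals is no check of stability. Of the recomputed values, 156 lost their call, most often with the 6 other libraries as 1 group. It counts the distance between 2D and 3D_E as spread. That setting left 150 genes called higher, 38 called lower, 150 set apart above and 38 below. Of the 15 genes named above, 11 were set apart in every alternative in which they were tested and 4 were lost only in that setting. Of the 15 named below these were 10 and 5. Among the 11 above, PAPPA2 and TNFSF15 passed the filter only through 3D_L. Each was tested in only 16 alternatives, fewer than the other genes named above, so their stability is less fully checked. Over the whole sets, 87 of the 582 genes above and 35 of the 328 below were set apart in every alternative that refitted the data. Genes untested in a setting count here as not set apart. In every run with 1 library left out these were 347 and 165. The 15 named on each side were picked for large differences and do not stand for the sets. Quantile normalization gave 1305 called higher and 1310 lower, with 509 set apart above and 581 below, so the excess above was reversed. Genes called lower against 2D and 3D_E separately, overlapping or not, numbered 208, and 196 of them were among those set apart below. A weight per group gave 3179 genes higher and 2660 lower against 2D. The other causes of these shifts were not tested.

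Leaving out 1 library gave 811 to 2548 called higher, 382 to 2071 called lower, 387 to 884 set apart above and 199 to 586 below. Higher calls numbered 2548 without 3D_E replicate 1, 828 without 3D_L replicate 1 and 811 without 3D_L replicate 2. Lower calls numbered 2071 without 3D_E replicate 1, 497 without 3D_E replicate 2, 544 without 2D replicate 1, 537 without 2D replicate 3, 382 without 3D_L replicate 1 and 395 without 3D_L replicate 2. Against 2D, lower calls ranged from 1060 to 2305, with 1060 without 2D replicate 2, 1110 without 2D replicate 3 and 1104 without 3D_L replicate 1. Set-apart genes moved past 1.5 times without 3D_E replicate 1 (884 and 586), 3D_L replicate 1 (387 and 199) and 3D_L replicate 2 (387 and 214). With a library less, fewer values have to lie apart, yet without 3D_L replicate 1 or 2 fewer genes were set apart than with all libraries. Why the counts moved was not tested.

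The labels number the libraries, but same-numbered libraries deviated from their group means with correlations between -0.404 and 0.182, and 0 of 9 correlated best with its own number, so the numbers were not treated as pairs. With the replicate number as a block 523 genes were set apart above and 277 below. The planned search for promoter motifs was not run, since no promoter sequences of the build were at hand. Without counts, depth and its effect on low genes are unknown.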
